A study of Mus musculus with 6 samples.

Results

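Dram2, the gene deleted in these mice, belongs to a small family of genes that encode membrane proteins with several transmembrane segments: Dram1, Dram2, Tmem150a, Tmem150b and Tmem150c. These 5 genes, chosen by name as the deleted gene and its paralogs, were followed among the 52636 genes counted in cultured cells of the mouse retinal pigment epithelium (RPE, the pigmented layer under the retina) and choroid (the vascular layer behind it). The question was where the paralogs of Dram2 were expressed and at what level with and without the deletion. The samples came from male C57BL/6J mice aged 12 to 16 months, with 3 samples for each of the genotypes Dram2 wt/wt and Dram2 ko/ko. The wt/wt samples carried the intact gene. The ko/ko samples were homozygous for a constitutive CRISPR/Cas9 allele that lacks exon 4 in every cell of the body. The RPE and choroid were dissociated together with papain and the cells were kept in culture before single-cell RNA sequencing, so the levels are those of cultured cells and not of the tissue.

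DRAM1 is a lysosomal protein that p53 induces and that takes part in autophagy, the delivery of cell contents to lysosomes. DRAM2 is its lysosomal paralog, and loss of DRAM2 causes an inherited retinal dystrophy in humans. TMEM150A sits at the plasma membrane, where it acts with the lipid kinase complex of PI4KA that makes phosphatidylinositol 4-phosphate. TMEM150B is also known as DRAM3, and TMEM150C, also called Tentonin 3, has been linked to mechanically activated currents.

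The genes lie on 5 different chromosomes of the mouse assembly GRCm38, as annotated in GENCODE M21. Dram2 (ENSMUSG00000027900) lies on the plus strand at chr3:106547798-106575890, with 9 exons and 267 codons in its main transcript. Dram1 (ENSMUSG00000020057) lies on the minus strand at chr10:88322804-88379080, with 7 exons and 238 codons. Tmem150a (ENSMUSG00000055912) is a compact gene on the plus strand at chr6:72355447-72359762, with 8 exons and 271 codons. Tmem150b (ENSMUSG00000046456) lies on the minus strand at chr7:4706832-4725249, with 6 exons and 238 codons. Tmem150c (ENSMUSG00000050640) lies on the minus strand at chr5:100077872-100159808, with 8 exons and 249 codons.

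The deleted exon of Dram2, exon 4 of 9 at chr3:106561749-106561816, is 68 bases long and covers coding bases 132 to 199, that is codons 44 to 67. Its length leaves a remainder of 2 when divided by 3, so that joining exon 3 to exon 5 shifts the reading frame. The first sequence below is the wild-type coding strand with exon 4 in capitals between 26 bases of exon 3 and 26 bases of exon 5, and the second joins exon 3 directly to exon 5 with the first stop codon in the new frame in capitals. They are shown for the allele that separates the groups, whose deletion also takes in sequence on either side of exon 4. Both were derived from the GENCODE M21 transcript of GRCm38. The second is a prediction, since splicing of exon 3 to exon 5 was not observed.
Dram2 exon 4 in place: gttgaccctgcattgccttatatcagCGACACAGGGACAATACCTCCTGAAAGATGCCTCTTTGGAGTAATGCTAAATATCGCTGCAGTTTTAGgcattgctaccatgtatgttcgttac
Dram2 exon 3 joined to exon 5: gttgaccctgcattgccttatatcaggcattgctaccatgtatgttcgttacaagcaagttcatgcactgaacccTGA
In the joined sequence the reading frame stops after 60 codons, within exon 5, in place of the 267 codons of the intact gene. The 10x Genomics 3′ chemistry reads the end of a transcript, and the 3′ untranslated region of Dram2 (chr3:106573686-106575890, 2205 bases) lies outside exon 4. The Dram2 counts below therefore measure the 3′ end of Dram2 RNA and do not check the deletion itself.

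In all, 669049435 unique molecular identifiers (UMIs, each counting 1 captured RNA molecule) were counted in 25428 cells, with 96808998 to 122746184 UMIs and 2140 to 6648 cells per sample. The labels place every sample in batch 1 except Dram2 ko/ko replicate 3, which is in batch 2, and nothing in them says whether the samples of a genotype came from separate animals or cultures, so p-values measure only the spread between these samples. No pair of samples of the same genotype was a duplicate, and pairs across genotypes were not checked. Levels are given as CPM, the UMIs of a gene per 1000000 UMIs of the cells summed, with the SD over samples, and only for cell types with 10 or more cells in a sample. The deposited annotation named 8 cell types, 4 of them fibroblast types, and divided the fibroblasts into 9 sub-clusters. The names were checked against marker genes. Cells named RPE held the simple keratin Krt18 at 710 CPM and the RPE transcription factor Otx2 at 87.4 CPM, but the mature RPE genes Rpe65 and Best1 were near 0 at 0.69 and 0.20 CPM. These cells were uneven between samples. Their 8 RPE markers summed to 508 to 1094 CPM in wt/wt and 296 to 1112 CPM in ko/ko. For 4 proliferation markers the sums were 138 to 410 CPM and 68.7 to 671 CPM. For 7 fibroblast markers they were 576 to 1215 CPM in wt/wt and 348 to 585 CPM in ko/ko. The part of these differences in the RPE values below was not tested. Cells named Pericyte held 5 Schwann cell markers at a summed 1307 CPM against 3.89 CPM in Fibroblast cells, and of 7 pericyte markers Kcnj8, Higd1b and Ndufa4l2 were at 0 and Abcc9 at 0.11 CPM. Rgs5 and Pdgfrb were at 11.6% and 34.0% of their Fibroblast level there, while Cspg4 stood at 199 CPM, 529% of it. The deposited name is kept below for these cells. Endothelial cells held Pecam1 at 653 CPM. Myeloid cells held Lyz2 at 10629 CPM beside 7 fibroblast markers summed at 63.1% of their Fibroblast level, and the part of these in the Myeloid values below was not tested.

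Dram2 RNA was found in every cell type, with 22428 UMIs in all and at least 1 UMI in 50.3% of cells. Its mean level was highest in Myeloid cells at 56.9 ± 13.3 CPM (SD, n = 4 samples) and lowest in Fibroblast-like cells at 17.2 ± 4.90 CPM (n = 6), a 3.30-fold range. The Myeloid values were 57.5 CPM in Dram2 wt/wt replicate 2, 64.1 CPM in wt/wt replicate 3, 68.1 CPM in ko/ko replicate 2 and 38.1 CPM in ko/ko replicate 3, the other 2 samples having fewer than 10 such cells. In each of these 4 samples the Myeloid value was above that of every other cell type in the same sample. In the samples under 10 cells it was lower than in Fibroblast, at 25.8 CPM in wt/wt replicate 1 (9 cells, 10 UMIs) and 14.6 CPM in ko/ko replicate 1 (3 cells, 2 UMIs). All 84 Myeloid cells pooled gave 46.9 CPM from 103 Dram2 UMIs.

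Below the Myeloid cells, Dram2 was at 36.4 ± 10.5 CPM in Endothelial, 35.5 ± 4.74 CPM in Fibroblast, 31.9 ± 4.14 CPM in Fibroblast proliferating, 31.8 ± 5.90 CPM in Fibroblast 2 and 30.6 ± 6.05 CPM in RPE cells (n = 6 samples each). Most of these neighbours did not differ beyond their spread, since Endothelial was above Fibroblast in 3 of 6 samples and RPE above Fibroblast proliferating in 3 of 6. Fibroblast was above Fibroblast proliferating in 6 of 6 samples, by 3.60 ± 1.41 CPM. In RPE cells Dram2 stood at 32.8, 30.3 and 37.8 CPM in Dram2 wt/wt and 34.0, 28.3 and 20.2 CPM in Dram2 ko/ko, or 86.0% of its Fibroblast level. Pericyte cells followed at 21.0 ± 3.18 CPM, and the Fibroblast-like cells, which had a median of only 4825 UMIs per cell against 26108 in Fibroblast, came last. The Dram2 mean of cultured RPE cells thus lay below those of the 3 larger fibroblast types and above that of Fibroblast-like cells. Within samples, RPE was below Fibroblast in 5 of 6, by 4.98 ± 6.27 CPM, and above Fibroblast 2 in 4 of 6.

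Dram1, the p53-induced member, had 10839 UMIs and, of the 3 abundant members, the widest range between cell types. It was highest in Endothelial cells at 27.2 ± 6.90 CPM and lowest in RPE cells at 3.05 ± 0.671 CPM (n = 6 samples each), an 8.91-fold difference. In RPE cells it measured 2.98, 3.92 and 1.96 CPM in Dram2 wt/wt and 3.16, 2.79 and 3.50 CPM in Dram2 ko/ko. RPE was below each of the other cell types in 6 of 6 samples, and below Myeloid in 4 of 4. RPE cells held 1.23% of all Dram1 UMIs although they held 5.93% of the UMIs of all genes.

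The RPE level of Dram1 was 19.7% of its Fibroblast level. Beside it, 7 fibroblast markers summed in RPE cells to 12.6% of their Fibroblast level, and what part of the Dram1 signal of RPE cells moved with them was not tested. Of 15 other listed p53-related genes (p53 itself and its targets), the lowest in RPE was Bax, a promoter of apoptosis, at 56.9% of its Fibroblast level, and Mdm2, the p53 inhibitor that p53 induces, was at 91.2%. The one furthest from Fibroblast was Gdf15, a stress-induced secreted factor, at 682% of its Fibroblast level, with 236 CPM in RPE against 34.6 CPM in Fibroblast.

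After Endothelial cells, Dram1 was at 22.9 ± 8.35 CPM in Myeloid (n = 4), 22.3 ± 2.75 CPM in Fibroblast 2, 18.1 ± 1.45 CPM in Fibroblast proliferating, 15.5 ± 1.75 CPM in Fibroblast, 13.0 ± 3.02 CPM in Pericyte and 7.56 ± 2.72 CPM in Fibroblast-like cells (n = 6). Endothelial and Myeloid did not differ beyond their spread, each being the higher in 2 of 4 samples, and the same held for Myeloid and Fibroblast 2. The 3 larger fibroblast types kept their order in every sample, Fibroblast 2 above Fibroblast proliferating by 4.20 ± 1.57 CPM and Fibroblast proliferating above Fibroblast by 2.66 ± 0.527 CPM, each in 6 of 6. The Endothelial value rested on 92 Dram1 UMIs in 288 cells.

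**Figure D1:**
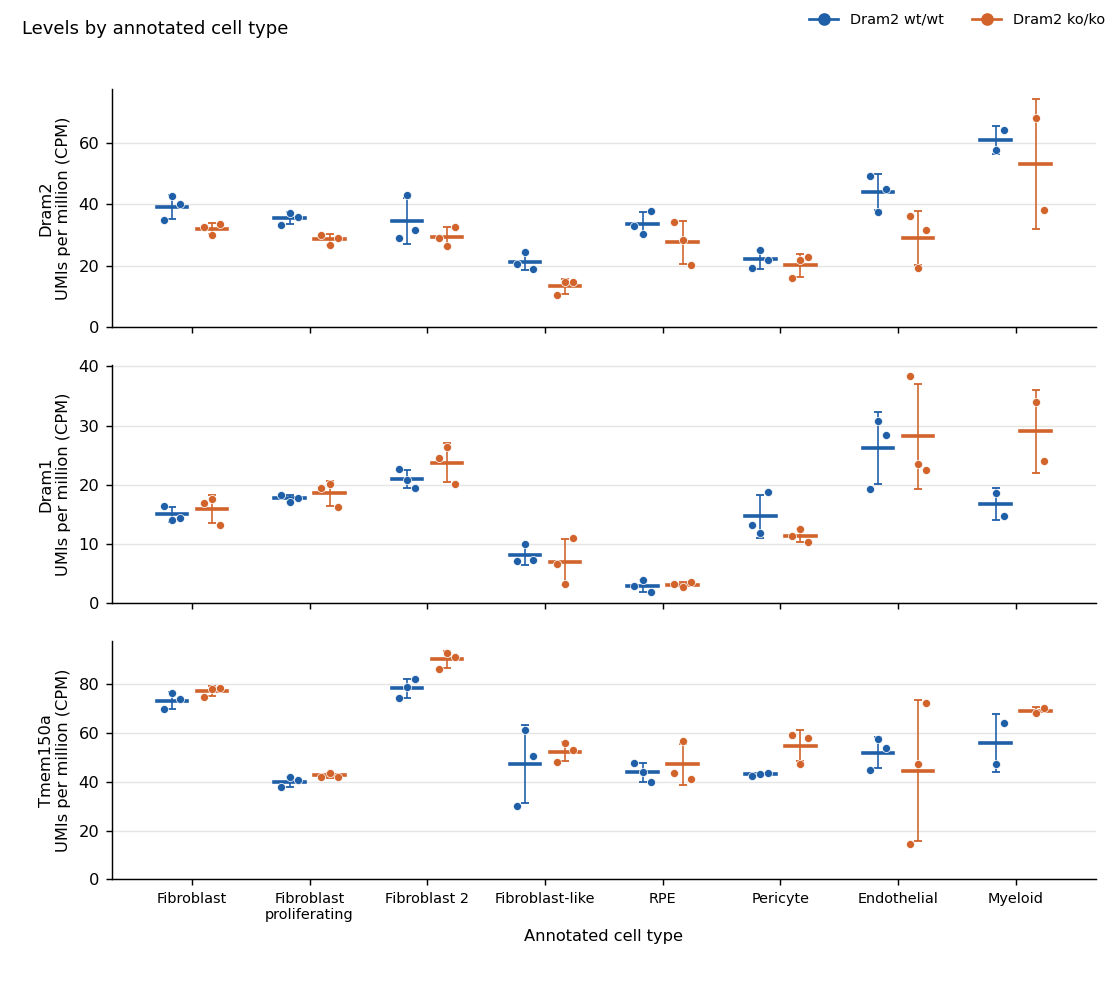
Level of Dram2, Dram1 and Tmem150a (CPM) in each deposited cell type. Each dot is 1 sample, coloured by genotype, the line is the mean and the whisker the SD over samples. Dram1 lies between 1.96 and 3.92 CPM in RPE cells, below every other cell type of the same sample, and Tmem150a lies between 37.8 and 43.7 CPM in Fibroblast proliferating cells, against 69.6 to 78.5 CPM in Fibroblast cells.

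Tmem150a, the plasma membrane member, had 43018 UMIs and at least 1 UMI in 65.9% of cells. Its highest mean was in Fibroblast 2 cells at 84.3 ± 7.28 CPM and its lowest in Fibroblast proliferating cells at 41.3 ± 1.99 CPM (n = 6), a ratio of 2.04 that held its direction in 6 of 6 samples. Fibroblast proliferating cells, the cycling fibroblasts, measured 37.8, 41.8 and 40.6 CPM in Dram2 wt/wt and 42.1, 43.7 and 42.0 CPM in Dram2 ko/ko. Fibroblast cells measured 69.6, 76.2 and 74.0 CPM in Dram2 wt/wt and 74.7, 77.9 and 78.5 CPM in Dram2 ko/ko. All 6 samples thus had more Tmem150a in Fibroblast than in Fibroblast proliferating cells, by 33.8 ± 1.66 CPM, and the 2 ranges did not overlap.

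RPE cells held Tmem150a at 45.5 ± 6.10 CPM, or 60.5% of the Fibroblast level. Myeloid cells were at 62.4 ± 10.3 CPM (n = 4), Fibroblast-like at 49.8 ± 10.7 CPM, Pericyte at 48.9 ± 7.59 CPM and Endothelial at 48.2 ± 19.2 CPM (n = 6). From Fibroblast-like down to RPE the neighbours in this order changed places between samples, and RPE was above Fibroblast proliferating in 4 of 6. The wide spread in Endothelial cells came with Dram2 ko/ko replicate 1, where 6 Tmem150a UMIs gave 14.4 CPM, against 44.7 to 72.1 CPM in the other 5 samples. Fibroblast 2 was above Fibroblast in 6 of 6 samples, by 9.13 ± 4.86 CPM. The order of the fibroblast types for Tmem150a was not that for Dram1, since Fibroblast proliferating was above Fibroblast for Dram1 and below it for Tmem150a, in 6 of 6 samples each.

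Tmem150c, the member linked to mechanical currents, was scarce, with 134 UMIs in the whole data set. RPE cells held 57 of them, 42.5% of its UMIs against 5.93% of the UMIs of all genes. The RPE values were 0.497, 1.48 and 0.870 CPM in Dram2 wt/wt and 0.702, 0.929 and 1.87 CPM in Dram2 ko/ko. Most of the RPE UMIs came from Dram2 wt/wt replicate 2 and ko/ko replicate 3, and the other RPE values rested on few UMIs each. RPE was above Fibroblast in 6 of 6 samples, with a mean of 1.06 ± 0.517 CPM against 0.117 ± 0.0517 CPM, a 9.03-fold difference. At this scarcity 3.28% of RPE cells held a UMI of Tmem150c against 0.340% of Fibroblast cells, at similar median depths of 22906 and 26108 UMIs per cell.

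The remaining levels of Tmem150c also rested on few UMIs. Endothelial cells had 0.879 ± 1.08 CPM from 3 UMIs and were above RPE in 3 of 6 samples, so these types did not differ beyond their spread. Fibroblast proliferating cells had 0.136 CPM from 24 UMIs, Fibroblast 2 cells 0.0808 CPM from 6 UMIs and Pericyte cells 1 UMI. No UMI was found in Fibroblast-like cells, which allows a level of up to 0.455 CPM, or in Myeloid cells, which allows up to 1.36 CPM (3 counts over the type, counting error only). In RPE cells 5 melanocyte markers summed to 14.1 CPM and 5 photoreceptor markers to 1.04 CPM. The photoreceptor markers stood at 2.35 CPM in Fibroblast cells. The melanocyte markers do not tell melanocytes from RPE cells, which are pigmented themselves. What part melanocytes or photoreceptors, if present, have in the Tmem150c level of RPE was not tested.

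Tmem150b had 48 UMIs in 25428 cells, 0.0711 ± 0.0340 CPM over the 6 samples. Fibroblast cells held 18 of these UMIs, Fibroblast 2 cells 15, Fibroblast proliferating cells 10, RPE cells 4 and Myeloid cells 1. Fibroblast 2 cells thus held 31.3% of the Tmem150b UMIs and 10.0% of the UMIs of all genes, at 0.229 ± 0.162 CPM, and were above Fibroblast proliferating cells in 6 of 6 samples. The lowest of their values was 0.0669 CPM and the highest 0.468 CPM, both in Dram2 ko/ko samples. No UMI was found in Pericyte cells (up to 0.562 CPM allowed), Endothelial cells (up to 0.835 CPM) or Fibroblast-like cells (up to 0.455 CPM). Tmem150b was the least certain member, having the fewest UMIs. Of the stretches of 31 bases taken from the final 400 bases of its transcripts, 49.9% also occur, on the opposite strand, in transcripts of Brsk1. This could affect its counts only if the counting ignored the strand, and whether it did was not given in the sources used here. The same share was 12.6% for Tmem150c (with its antisense RNA Tmem150cos), 1.53% for Tmem150a (with Rnf181), 0.589% for Dram2 and 0 for Dram1.

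**Figure D2:**
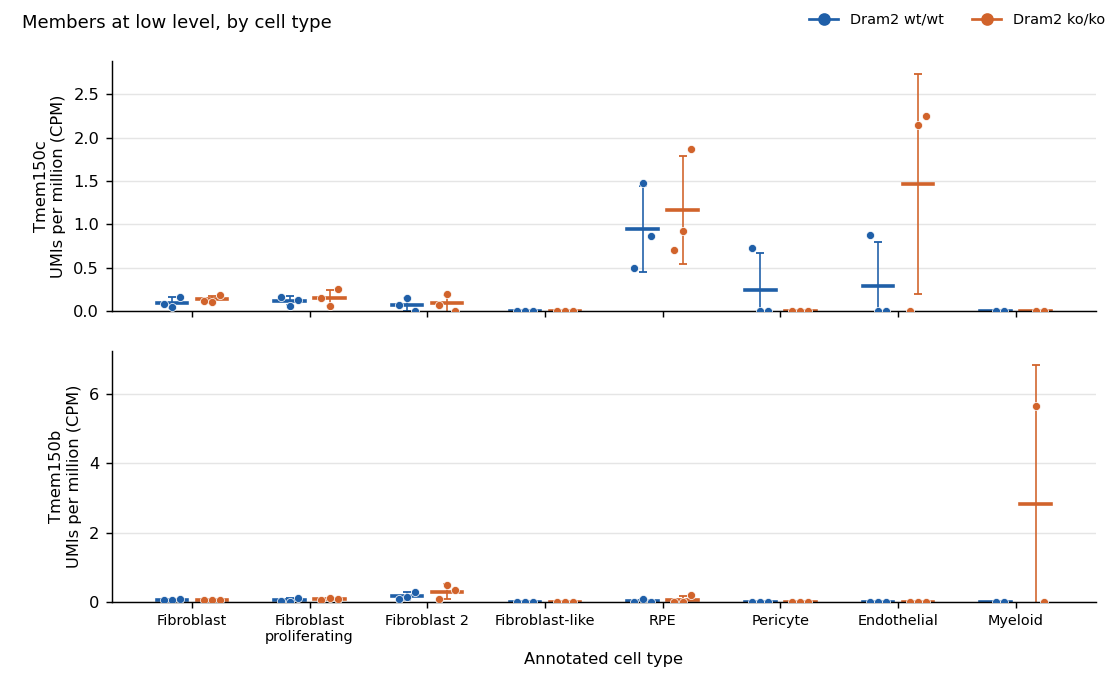
Level of the scarce members Tmem150c and Tmem150b (CPM) in each deposited cell type. Each dot is 1 sample, coloured by genotype, the line is the mean and the whisker the SD. The 6 RPE samples hold Tmem150c at 0.497 to 1.87 CPM, and the single high Tmem150b dot in Myeloid cells is 1 UMI (5.67 CPM).

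Among the fibroblast sub-clusters, the levels of the 3 abundant members followed different orders. On the mean, Dram2 was highest in sub-cluster 6 at 49.3 ± 15.7 CPM and at 31.3 to 36.3 CPM in sub-clusters 1, 2, 3, 4, 7 and 9. It was lower in sub-cluster 5, at 15.9 ± 4.39 CPM. Sub-cluster 6 was not the highest in each sample. It was at 30.2 CPM in Dram2 ko/ko replicate 3, where sub-cluster 1, at 30.8 CPM or above in every sample, was higher. Sub-cluster 6 was also where the genotypes lay furthest apart for Dram2, with 59.8, 68.4 and 59.8 CPM in Dram2 wt/wt against 44.4, 33.2 and 30.2 CPM in Dram2 ko/ko. All genes considered, 4.78% separated in this direction in sub-cluster 6. These values rested on 128 Dram2 UMIs in 477 cells of shallow depth, with a median of 4766 UMIs per cell.

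Dram1 was highest in sub-cluster 3 at 21.3 ± 2.86 CPM, and low in sub-cluster 5 at 9.20 ± 4.08 CPM and in sub-cluster 7 at 10.1 ± 7.19 CPM. For Tmem150a the mean was highest in sub-cluster 7 at 96.4 ± 17.3 CPM, followed by sub-cluster 4 at 86.2 ± 7.65 CPM and sub-cluster 3 at 82.1 ± 6.72 CPM. This is an order of means and not of each sample. In sub-cluster 2 Tmem150a was at 41.2 ± 2.02 CPM. Sub-cluster 7 thus combined the highest Tmem150a mean with a low Dram1 mean, though with only 41 Dram1 UMIs, 22.7 CPM in Dram2 wt/wt replicate 2 and 1.74 CPM in Dram2 ko/ko replicate 3. Sub-cluster 8 was almost without family transcripts. Its 168 cells held 5 UMIs of Tmem150a, 1 of Dram2 and none of the other members, at a median of 3150 UMIs per cell. Sub-cluster 9 had enough cells in 3 samples only and was not compared between genotypes. Tmem150b and Tmem150c had no UMI in sub-clusters 5 to 9.

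**Figure D3:**
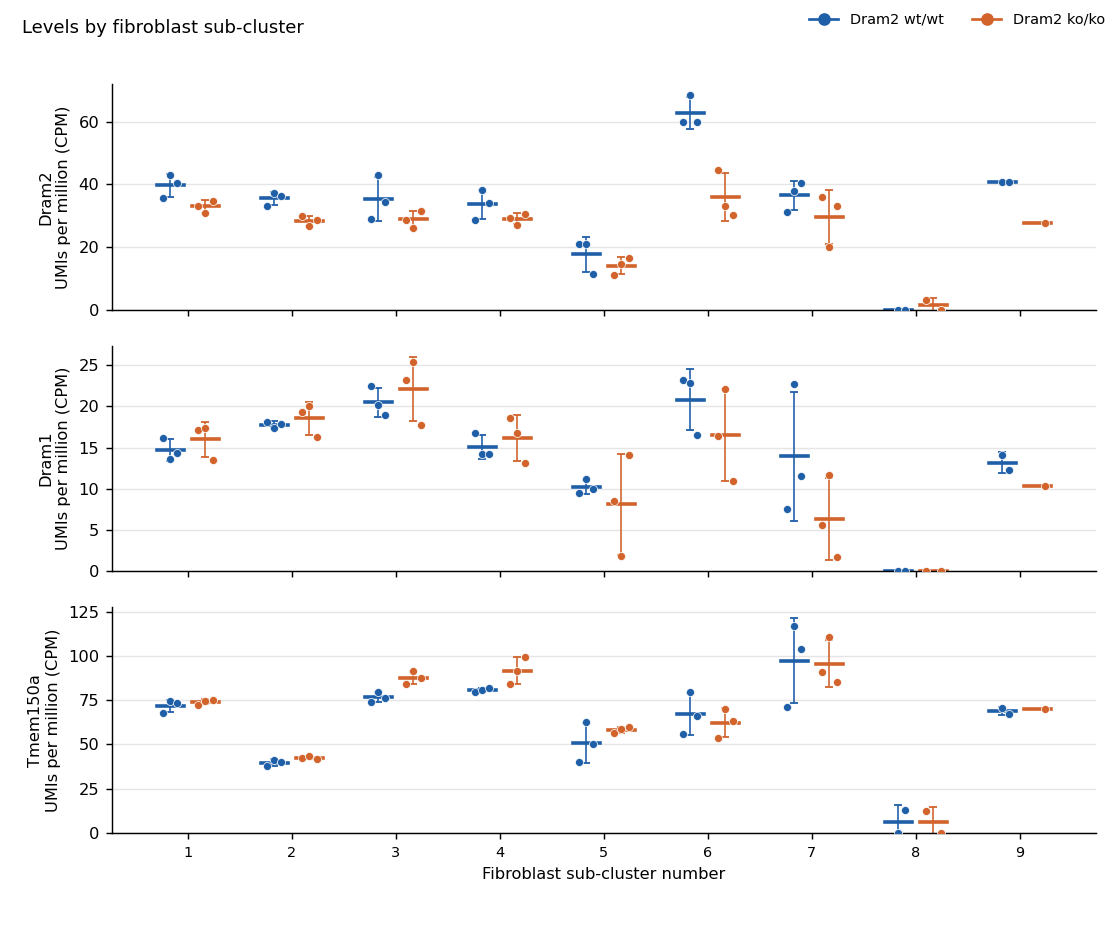
Level of Dram2, Dram1 and Tmem150a (CPM) in fibroblast sub-clusters 1 to 9. Each dot is 1 sample with 10 or more cells of the sub-cluster, coloured by genotype, the line is the mean and the whisker the SD. In sub-cluster 6 the 3 wt/wt dots of Dram2 (59.8 to 68.4 CPM) lie above the 3 ko/ko dots (30.2 to 44.4 CPM), as 4.78% of genes there do.

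The levels were then compared between genotypes, where in whole-sample sums fewer cells of a type and less RNA per cell cannot be told apart. Over whole samples, Dram2 measured 33.4, 39.6 and 38.1 CPM in Dram2 wt/wt and 30.7, 28.3 and 30.1 CPM in Dram2 ko/ko. Every ko/ko value lay below every wt/wt value, and the ko/ko mean of 29.7 ± 1.26 CPM was 80.1% of the wt/wt mean of 37.1 ± 3.23 CPM (n = 3 each). An exact two-sided permutation test gave p = 0.1, the smallest that 3 samples against 3 allow. Among all 22580 genes tested, 7.33% had every ko/ko value below every wt/wt value. The log2 fold change of Dram2 (ko/ko against wt/wt) was -0.30 (SE 0.0871, 95% interval -0.50 to -0.10), with an unadjusted voom-limma p of 0.00822 and an adjusted p of 0.301, so the difference did not pass the test over all genes. The interval places the 3′ end of Dram2 RNA in ko/ko at 0.707 to 0.933 times the wt/wt level. Within batch 1, without Dram2 ko/ko replicate 3, the log2 fold change was again -0.30 (voom-limma adjusted p 0.326), and batch 2 holds 1 sample and gives no value of its own.

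The RNA of the deleted gene was thus still counted in ko/ko samples in every cell type. The ko/ko mean of Dram2 was below the wt/wt mean in 8 of 8 cell types, which share samples but not cells. The same held in each of sub-clusters 1 to 7, while sub-cluster 8 held a single Dram2 UMI. The sub-clusters divide the cells of the fibroblast types again, so they add no further cells. In 4 cell types no ko/ko value reached a wt/wt value. Fibroblast measured 34.9, 42.5 and 39.9 CPM in wt/wt against 32.4, 29.9 and 33.6 CPM in ko/ko (7.01% of genes tested there separated in this direction). Fibroblast proliferating measured 33.2, 37.2 and 35.7 CPM against 30.0, 26.7 and 28.8 CPM (6.52% of genes). Fibroblast-like measured 20.3, 24.3 and 18.9 CPM against 10.5, 14.8 and 14.7 CPM (6.05%), and Endothelial 49.1, 37.5 and 44.8 CPM against 36.0, 19.3 and 31.5 CPM (6.6%). The same held in sub-clusters 1 (7.19%), 2 (7.2%) and 6 (4.78%). In RPE cells (5.09% of genes), Pericyte cells (5.68%), Fibroblast 2 cells (6.6%) and Myeloid cells (19% with 2 samples against 2) the Dram2 values of the genotypes overlapped.

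On the log2 scale the Dram2 difference was -0.29 (SE 0.0953) in Fibroblast and -0.32 (SE 0.0862, 95% interval -0.51 to -0.13) in Fibroblast proliferating, with voom-limma adjusted p-values of 0.420 and 0.201. It was -0.67 (SE 0.29) in Fibroblast-like and -0.64 (SE 0.31) in Endothelial cells, where the voom-limma adjusted p was 0.969 and 0.942. The Endothelial estimate was -0.36 without Dram2 ko/ko replicate 2. In the other types it was -0.40 in RPE, -0.39 in Myeloid, -0.19 in Fibroblast 2 and -0.05 in Pericyte cells, all with an adjusted voom-limma p of 0.887 or above. The RPE value rested on Dram2 ko/ko replicate 3, without which it was -0.0189 within batch 1, and the Fibroblast 2 value was -0.0470 without Dram2 wt/wt replicate 2. In Myeloid cells the sign rested on Dram2 ko/ko replicate 3, since the log2 fold change was 0.22 without it, and in Pericyte cells leaving out single samples moved it between -0.20 and 0.07.

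Tmem150a pointed the other way in most cell types without passing the test. Over whole samples it measured 60.3, 62.8 and 64.2 CPM in wt/wt and 65.7, 68.9 and 64.2 CPM in ko/ko, so that the groups overlapped at 64.2 CPM. Its log2 fold change was 0.10 (SE 0.0800, voom-limma adjusted p 0.920), and the 95% interval places ko/ko at 0.946 to 1.22 times wt/wt. It was 0.13 within batch 1, without Dram2 ko/ko replicate 3 (adjusted voom-limma p 0.634), and 0.0482 without Dram2 ko/ko replicate 2. The ko/ko mean was above the wt/wt mean in 7 of 8 cell types, the exception being Endothelial, where the log2 fold change was -0.36 and, without Dram2 ko/ko replicate 1, 0.24. The fitted sign also turned in Fibroblast-like cells without Dram2 wt/wt replicate 1 (-0.11) and in RPE cells without Dram2 ko/ko replicate 2 (-0.0373).

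In 4 cell types every ko/ko value of Tmem150a was above every wt/wt value, Fibroblast 2 (4.81% of genes separated this way), Fibroblast proliferating (4.76%), Pericyte (5.04%) and, with 2 samples against 2, Myeloid (14.7%). With the Myeloid samples under 10 cells included, the genotypes overlapped in Myeloid cells. Fibroblast 2, where the unadjusted p was lowest, measured 74.2, 78.9 and 81.9 CPM in wt/wt against 86.4, 92.9 and 91.3 CPM in ko/ko. Its log2 fold change there was 0.22 (SE 0.0916, 95% interval 0.01 to 0.42, unadjusted p 0.0386 and adjusted p 0.762 by voom-limma). The Pericyte values were 42.5, 43.0 and 43.5 CPM against 59.0, 47.4 and 57.8 CPM, a log2 fold change of 0.28 (SE 0.20) that was 0.48 without Dram2 ko/ko replicate 2. The genotypes overlapped for Tmem150a in Fibroblast (4.57% of genes separated upward), Fibroblast-like (2.34%), RPE (2.48%) and Endothelial cells (3.94%). Separation in this direction was also found in sub-clusters 2 (4.6%), 3 (4.11%) and 4 (5.46%), which divide the same fibroblast cells again. The ko/ko mean was the higher in sub-clusters 1 to 5 and the lower in sub-cluster 6 (62.4 against 67.3 CPM), sub-cluster 7 (95.5 against 97.3 CPM) and, on 5 UMIs, sub-cluster 8. Fibroblast proliferating cells had the lowest Tmem150a. There 4 proliferation markers summed to 842 to 985 CPM in wt/wt and 960 to 1045 CPM in ko/ko. Each marker had the higher mean in ko/ko, as it also did in Myeloid cells. In Pericyte cells the 4 markers summed to 899 to 1134 CPM in wt/wt and 424 to 1119 CPM in ko/ko. Each of them had the lower mean in ko/ko there. In Fibroblast 2 cells, at a summed 8.86 CPM, 3 of the 4 were lower in ko/ko. The part of these markers in the Tmem150a values was not tested.

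Dram1, the closest lysosomal paralog, measured 17.4, 14.3 and 15.2 CPM in wt/wt and 18.3, 19.1 and 13.1 CPM in ko/ko over whole samples. The ko/ko group held both the highest and the lowest value, and without Dram2 ko/ko replicate 2 the sign of the fold change below turned. The log2 fold change was 0.11 (SE 0.16, voom-limma adjusted p 0.936), and the 95% interval of this fit places ko/ko at 0.833 to 1.39 times wt/wt. Dram2 ko/ko replicate 3, the sample of batch 2, was the low one. Within batch 1 the log2 fold change was 0.29 (unadjusted voom-limma p 0.0406, adjusted 0.439).

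By cell type, Dram1 had a log2 fold change of 0.08 in Fibroblast, 0.06 in Fibroblast proliferating, 0.18 in Fibroblast 2, 0.10 in RPE and 0.23 in Endothelial cells, none passing the test (adjusted voom-limma p 0.887 or above). Leaving out Dram2 ko/ko replicate 2 gave -0.0044 in Fibroblast, -0.0086 in Fibroblast proliferating and 0.0830 in Fibroblast 2, and leaving out Dram2 wt/wt replicate 1 gave -0.0733 in Endothelial cells. In Pericyte and Fibroblast-like cells Dram1 did not pass the filter on low counts with all samples. In the 4 alternatives that kept it in Pericyte its log2 fold change ran from -0.24 to -0.0725 (lowest voom-limma adjusted p 0.916), and in the 3 that kept it in Fibroblast-like it took either sign, from -0.15 to 0.11 (lowest voom-limma adjusted p 0.955). Its ko/ko means there were the lower ones, 11.4 against 14.7 CPM in Pericyte and 6.98 against 8.14 CPM in Fibroblast-like cells, and the groups overlapped in both. The Dram1 estimate was largest in Myeloid cells, with 18.6 and 14.8 CPM in wt/wt against 34.0 and 24.0 CPM in ko/ko, a log2 fold change of 0.59 (SE 0.49, voom-limma adjusted p 0.914) that ran from 0.49 to 1.03 when 1 sample was left out, the highest without Dram2 ko/ko replicate 3. The Myeloid samples under 10 cells held Dram1 at 36.1 CPM in Dram2 wt/wt replicate 1 (14 UMIs) and 51.0 CPM in Dram2 ko/ko replicate 1 (7 UMIs), so the genotypes overlapped with them included. With 2 samples against 2, 14.7% of the genes tested in Myeloid cells split this way, and an exact permutation test cannot go below p = 0.333. In RPE cells, where Dram1 was scarce, the 95% interval ran from 0.620 to 1.85 times the wt/wt level, so a moderate difference in either direction was not detectable at 133 UMIs.

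**Figure D4:**
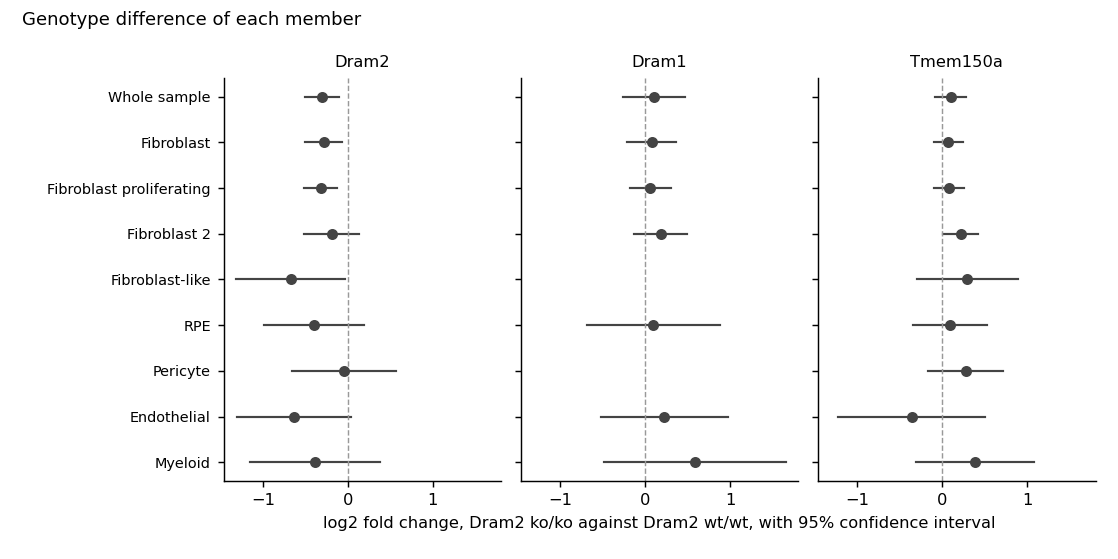
Log2 fold change, Dram2 ko/ko against Dram2 wt/wt, of Dram2, Dram1 and Tmem150a over whole samples and in each cell type where they passed the filter on low counts. Points are voom-limma estimates and bars their 95% intervals, the vertical line marking 0. Dram2 lies below 0 in all 9 comparisons (-0.67 to -0.05), and the whole-sample bars of Dram1 and Tmem150a span 0.

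Tmem150c measured 0.122, 0.204 and 0.171 CPM in wt/wt and 0.134, 0.125 and 0.445 CPM in ko/ko over whole samples. The single high value, in Dram2 ko/ko replicate 3, came from 49 UMIs, of which 31 lay in its 575 RPE cells. Dram2 wt/wt replicate 2, with 539 RPE cells, held 23 UMIs, of which 17 lay in RPE cells. The log2 fold change was 0.30 (SE 0.49, voom-limma adjusted p 0.940) with this sample and -0.28 without it. Tmem150b had too few counts to pass the filter on low counts in any comparison with all samples and was not tested there. Without that filter, or with 1 of 4 samples left out, it was kept over whole samples, and in these 5 settings its log2 fold change ran from 0.38 to 0.93 (lowest voom-limma adjusted p 0.650). Its whole-sample levels were 0.0565 ± 0.0216 CPM in wt/wt and 0.0857 ± 0.0421 CPM in ko/ko (n = 3 each), and the groups overlapped.

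Of the 5 members, 4 were tested over whole samples, 3 in each of 6 cell types and 2 in Fibroblast-like and Pericyte cells. Over these 26 tests, voom-limma called 0 members at an adjusted p under 0.05, and the edgeR quasi-likelihood test and DESeq2 also called 0. An unadjusted p under 0.05 was reached in 5 of the 26 tests by voom-limma, in 4 by edgeR and in 3 by DESeq2. The 5 were Dram2 over whole samples and in Fibroblast, Fibroblast proliferating and Fibroblast-like cells, and Tmem150a in Fibroblast 2. The 26 tests are not independent, since the whole-sample sums hold the cells of every type and all tests use the same samples. Over all genes, the share with an unadjusted voom-limma p under 0.05 was 7.01% for whole samples and 6.12% over the 8 cell types. By edgeR it was 6.67% and 5.54%, and by DESeq2 6.28% and 4.18%. DESeq2 called 1.68% of all genes over whole samples and 0.941% over the cell types, and edgeR called 0% and 0.0891%. The share called among all genes by voom-limma was 0% over whole samples, 0.00503% in Fibroblast, 0.624% in Fibroblast proliferating and 0.222% in Fibroblast 2. It was 0% in Fibroblast-like, RPE and Endothelial, 0.0118% in Pericyte and 0.0296% in Myeloid cells.

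Whether the genotype difference of a member depended on the cell type was tested against Fibroblast, the largest type. Of 21 such differences for Dram1, Dram2 and Tmem150a, voom-limma called 0 and edgeR called 0, and none had an unadjusted p under 0.05 by either tool. The lowest voom-limma p was 0.150 (adjusted p 0.857). The differences in log2 fold change ran from -0.44 (SE 0.34) for Tmem150a in Endothelial cells to 0.67 (SE 0.45) for Dram1 in Myeloid cells. Over all genes, 0.0138% of such differences were called in Myeloid cells, 0.0069% in Fibroblast 2 and 0% in the other 5 types.

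The neighbours of Dram2 on chromosome 3 were followed as the protein-coding genes within 200 kb of the gene, with distances taken from its nearer end. Cept1, a phospholipid synthesis enzyme on the opposite strand, starts within the first bases of Dram2 (chr3:106502260-106547802). Its log2 fold change over whole samples was 0.05 (SE 0.13). Dennd2d, 44768 bases away, was at -0.17 (SE 0.24), and Lrif1, 109097 bases away, at -0.01 (SE 0.0887). Of 21 tests of these neighbours over whole samples and cell types, voom-limma, edgeR and DESeq2 each called 0. By voom-limma and by edgeR 1 of them had an unadjusted p under 0.05, and 0 by DESeq2. It was that of Dennd2d in Fibroblast proliferating cells (log2 fold change -0.70, SE 0.25, voom-limma adjusted p 0.474). Chil6, 141616 bases away, did not pass the filter. None of these neighbours overlaps exon 4.

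Genes of the pathways in which the members act were taken as 7 lists, 58 genes in all. Over whole samples 57 passed the filter, 28 with a lower and 29 with a higher estimate in ko/ko by voom-limma (24 and 33 by DESeq2), and voom-limma, edgeR and DESeq2 each called 0. By each tool 3 of them had an unadjusted p under 0.05. In the 8 cell types 386 further tests also gave 0 calls by each tool, with 16 at an unadjusted p under 0.05 by voom-limma, 15 by edgeR and 12 by DESeq2. Over all genes DESeq2 called 1.68% for whole samples and 0.941% over the cell types, and the unadjusted voom-limma shares were the 7.01% and 6.12% given above.

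The PI4KA complex, the partner of TMEM150A, had all 7 genes tested over whole samples, 5 lower and 2 higher by voom-limma and 3 lower and 4 higher by DESeq2, with a voom-limma median log2 fold change of -0.0041 against 0.0046 over all genes. The largest estimate was that of Efr3b, one of its membrane anchors, at 0.12 (SE 0.23). By cell type, Ttc7b, a scaffold subunit, was at 7.12 CPM in Fibroblast, 24.4 CPM in RPE and 42.7 CPM in Endothelial cells, while Efr3a, the other anchor, stayed between 65.7 and 99.0 CPM in all 8 types. Pi4ka, the kinase itself, stayed between 16.0 and 33.0 CPM, with its lowest level in Fibroblast-like cells.

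The class III PI3K complex starts autophagosome formation. Over whole samples 6 of its 7 genes had a lower estimate, with a median of -0.07 against 0.0046 over all genes. Over the cell types 26 of 37 tests of these genes were lower and 11 higher by voom-limma. The largest whole-sample estimate was that of Rubcn, an inhibitor of the complex, at -0.18 (SE 0.12, voom-limma adjusted p 0.917). Of 13 autophagosome genes, 11 were higher and 2 lower over whole samples, with a median of 0.07. Over the cell types 57 of 93 tests of these genes were higher and 36 lower, with 8 of 11 lower in Myeloid cells. The largest whole-sample estimate was that of the initiation factor Rb1cc1 at 0.18 (SE 0.0958, voom-limma adjusted p 0.861). Sqstm1, the autophagy receptor, was at 772 CPM in RPE against 159 CPM in Fibroblast cells. Of 12 lysosome membrane genes, 6 were lower and 6 higher, with a median of 0.0094. The tetraspanin Cd63 had the largest estimate at 0.30 (SE 0.11, voom-limma adjusted p 0.567).

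Of p53 and its targets, 7 of 15 genes were lower and 8 higher, with a median of 0.02. The largest estimate was that of Sesn2, a stress-induced regulator of metabolism, at -0.24 (SE 0.0881, voom-limma adjusted p 0.546). Among the relatives that share the Frag1 fold, Pgap2 was at 0.03 (SE 0.0868) and Cwh43 was not tested. The mechanically gated channels Piezo1 and Piezo2, set beside Tmem150c, both had lower estimates, the larger for Piezo2 at -0.26 (SE 0.36).

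The genes whose level most resembled that of a member were ranked by Pearson's r of log2(CPM + 1) over 46 sums of sample and cell type, which share samples, depth and culture. For Dram2 they were Tsc22d4 (r = 0.821), Zbtb7b (0.816), Tcf7l2 (0.813), Tpp1 (0.811) and Taok3 (0.810), of which Tpp1 encodes a lysosomal protease. For Dram1 they were the endothelial receptor gene Acvrl1 (0.887), Irak3 (0.846), Ece1 (0.839), Tnfsf12 (0.838) and Tm4sf1 (0.826). For Tmem150a the likeness was weaker, with Comtd1 (0.747) and the respiratory chain gene Ndufb9 (0.717) first, then Uap1l1 (0.708), Aptx (0.698) and Pdss2 (0.697). Between the members themselves r was 0.371 for Dram2 with Dram1, 0.152 for Dram2 with Tmem150a and 0.187 for Dram1 with Tmem150a.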

How the data were processed

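Cells of 6 samples were profiled with the 10x Genomics 3′ v2 kit. The authors deposited UMI counts per gene and cell, not normalised, made with Cell Ranger 3.1.0 per the submitters' processing notes on GRCm38, exons only. A second deposited table gave sample, genotype, batch, cell type and sub-cluster. Cell types came from the authors' Seurat clustering after batch integration. Embedding coordinates were not used here, no doublets were removed and cells had been renamed, so shared barcodes could not be counted.

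Counts were summed per sample and cell type with 10 or more cells, filtered with filterByExpr, scaled with TMM (edgeR 4.0.16) and tested between genotypes by voom-limma in R 4.3.3 (limma 3.58.1), no covariates, Benjamini-Hochberg over all genes tested, threshold 0.05. With 3 samples per genotype and 96808998 to 122746184 UMIs per sample, intervals and floors cover few samples or counting error only. Cell types were clustered on the same cells, so levels between types carry no test. The test procedure was tested on simulated data with a fixed spread for all genes, which need not match the spread of these samples. Alternatives were edgeR, DESeq2 1.42.0, RLE factors, no filter, cells with 500 or more genes and at most 20% mitochondrial counts, batch, replicate block and leaving out each sample.

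Named were the 5 members, genes within 200 kb of Dram2, the 5 genes most like each member with a mean of 1 CPM or more (among genes of 5 CPM or more) and the largest estimate of each list. The members and lists were chosen with earlier results of these data known. The replicate numbers did not pair the samples.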

Additional observations from a re-analysis of the deposited data

How the results depend on the processing

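No call on a member depended on the processing: the number called was 0 in each comparison under every alternative run. Of 182 estimates of a member's log2 fold change under alternatives other than leaving out a sample, 180 kept their direction and side of the threshold. The 2 others came with batch as a covariate, which gave -0.29 for Tmem150c over whole samples and 0.22 for Dram2 in Myeloid cells. As batch 2 holds only Dram2 ko/ko replicate 3, this covariate nearly repeats leaving that sample out and is no separate check. The replicate block gave -0.30 for Dram2 over whole samples (voom-limma p 0.0280, adjusted 0.682) and changed no call. With batch as a covariate Dram2 in RPE was at -0.0149 and Dram1 in Myeloid at 1.04. Leaving out each sample in turn reversed 11 of 147 estimates. The ranges of these and of 10 others that moved by over 1.5 times were -0.0247 to 0.29 for Dram1 and -0.28 to 0.61 for Tmem150c over whole samples, -0.0044 to 0.22 for Dram1 in Fibroblast, -0.0086 to 0.17 for Dram1 in Fibroblast proliferating, -0.11 to 0.49 for Tmem150a in Fibroblast-like, -0.0373 to 0.25 for Tmem150a in RPE, -0.20 to 0.0736 for Dram2 in Pericyte, -0.59 to -0.0189 for Dram2 in RPE, -0.32 to -0.0470 for Dram2 in Fibroblast 2, -0.0733 to 0.35 for Dram1, -0.80 to -0.36 for Dram2 and -0.80 to 0.24 for Tmem150a in Endothelial, -0.61 to 0.22 for Dram2 and 0.49 to 1.03 for Dram1 in Myeloid, 0.0830 to 0.29 for Dram1 in Fibroblast 2 and, for Tmem150a, 0.0482 to 0.13 over whole samples, 0.0496 to 0.12 in Fibroblast, 0.0447 to 0.11 in Fibroblast proliferating, 0.14 to 0.60 in Myeloid and 0.22 to 0.48 in Pericyte. The difference between Endothelial and Fibroblast for Tmem150a ran from -0.92 to 0.12. Averaging the CPM of single cells in place of sums gave 4.14 CPM for Dram1 in RPE cells and 47.4 CPM for Tmem150a in Myeloid cells. It gave 1.58 CPM for Tmem150c in RPE cells, against 1.06 CPM from sums. In all, 211 of 217 recomputed levels moved by less than 1 SD. The sign turned without Dram2 ko/ko replicate 2 (Dram1 over whole samples, in Fibroblast and in Fibroblast proliferating, Tmem150a in RPE), ko/ko replicate 3 (Tmem150c, Dram2 in Myeloid), ko/ko replicate 1 (Tmem150a in Endothelial, Dram2 in Pericyte), wt/wt replicate 1 (Tmem150a in Fibroblast-like, Dram1 in Endothelial) or wt/wt replicate 2 (Dram2 in Pericyte). The causes were not tested. Over all genes, voom-limma, edgeR and DESeq2 called 113, 62 and 320 genes in Fibroblast proliferating, 33, 11 and 168 in Fibroblast 2, 1, 1 and 320 in Fibroblast, and 0, 0 and 378 over whole samples. Depth limits Tmem150b and Tmem150c everywhere and all members in Myeloid, Endothelial and Pericyte cells.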
